A study of Mus musculus with 2 samples.

Results

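Deeply covered candidate 5-formylcytosine (5fC) sites of mouse embryonic stem cells were described, taken outside the windows of the genome most dense in listed sites. Embryonic stem cells are cultured pluripotent cells derived from the blastocyst. Members were selected on 3 measured quantities, the read depth, the presence of lost reads and the local density of listed sites: they were listed cytosines with at least 50 reads, of which at least 1 read had lost the C, outside every 10 kb window that held 10 or more listed sites in either library. There were 1117 members among 28569 listed sites in replicate 1 and 1161 among 29650 in replicate 2, or 3.91% and 3.92%, and 1983 distinct members in all. They lay in 1105 and 1136 windows of 10 kb, and 66171 and 70065 reads lay on them. The rule left out 13 windows, which held 435 and 389 sites of at least 50 reads. No repeat annotation was used, so members in repeats were not removed as such. They are compared with the 25515 and 26597 sites of 30 to 49 reads, under the same conditions on lost reads and windows.

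The 2 libraries form 1 group, untreated as far as the labels say, with no control library among the samples. For each, 10 µg of genomic DNA was sheared to 300 to 500 bp, 5fC was tagged with 5 µM of a biotin reagent, tagged fragments were captured on streptavidin beads, and the DNA was deaminated with 20 µM of the enzyme A3A and amplified by PCR. The labels name neither the cell line nor the sex of the cells, nor do they say whether the libraries came from separate cultures. Expression was not measured, so the cell type could not be checked against its markers. The level of a site is the percentage of its reads in which the C was retained. It refers to captured DNA only, and a cytosine that A3A failed to convert cannot be told apart from a modified one.

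5fC is made when the TET enzymes oxidise 5-methylcytosine by way of 5-hydroxymethylcytosine, and thymine DNA glycosylase can cut it out so that base excision repair restores plain cytosine. In mammals methylation sits mainly on CG, and in embryonic stem cells 5fC is known at low levels, with enhancers and gene starts among the places where it turns over. A3A, a cytosine deaminase of the APOBEC3 family, works on single-stranded DNA and is known to prefer a cytosine that follows a T.

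The libraries were not independent at the sites that both list. At the 295 sites that were members in both replicates, the counts of kept and of lost reads were identical at 139 (47.1%, Wilson interval 41.5 to 52.8), and chi-square divided by its degrees of freedom came to 0.0599, where independent counts would give about 1. At the 10075 sites of 30 to 49 reads in both, identical counts stood at 75.5% and chi-square over its degrees of freedom was 0.0167. At shared sites the libraries were therefore closer than sampling noise allows, and they count as 1 sample there. Values are given for each library, and their likeness is no measure of biological error. Counting error is all that the intervals and Fisher tests take in. PCR copies of a molecule could not be recognised from the deposited counts.

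Sequence could be read only for members inside promoter windows, which are 5.61% and 4.34% of members, and it does not stand for the others. The 7 sites below are among the 8 members in a promoter window (250 bases before to 50 after a start site, RefSeq, GRCm38.p6) with the greatest depth among those deep in both replicates. Each stretch is written 5′ to 3′ on the strand of the called cytosine, which is the capital letter.

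Pfkm (chr15:98108516-98108576, plus strand): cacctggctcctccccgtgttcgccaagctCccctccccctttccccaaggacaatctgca
Zeb2 (chr2:45117519-45117579, plus strand): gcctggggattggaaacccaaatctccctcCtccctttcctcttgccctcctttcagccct
Gm3693 (chr12:81228274-81228333, minus strand): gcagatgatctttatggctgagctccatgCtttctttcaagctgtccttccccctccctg
Brsk1 (chr7:4690699-4690759, minus strand): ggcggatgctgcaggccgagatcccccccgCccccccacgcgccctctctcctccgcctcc
Ctcf (chr8:105636401-105636461, plus strand): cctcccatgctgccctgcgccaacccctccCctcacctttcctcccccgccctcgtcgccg
Spcs1 (chr14:31001826-31001886, minus strand): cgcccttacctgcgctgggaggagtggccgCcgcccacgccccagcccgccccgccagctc
Smad3 (chr9:63758134-63758194, plus strand): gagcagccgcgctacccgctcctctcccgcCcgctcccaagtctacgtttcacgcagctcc

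Positions are counted from the start site of the promoter table, which can lie inside the gene where other start sites are in use. None of these 7 called cytosines lies in a CG. The share of C and G in the letters around them ran from 51.7% at Gm3693 to 80.3% at Spcs1. The median of all promoter windows of the table was 52.7%. Pfkm, which encodes the muscle form of phosphofructokinase, had its site 10 bases before the start site, with 70 of 81 reads keeping the C in replicate 1 and 70 of 83 in replicate 2. At Zeb2, a zinc finger repressor known from the epithelial to mesenchymal transition, 30 of 96 and 20 of 65 reads kept the C, 107 bases before the start. The site of Ctcf, whose protein binds insulators and anchors chromatin loops, also lay 107 bases before the start, with 39 of 64 and 39 of 62 reads. The levels of a site were close in both replicates, while the 7 sites ranged widely.

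Brsk1, a neuronal kinase gene, had 23 of 66 and 23 of 67 reads that kept the C, 199 bases before the start. Spcs1, a signal peptidase subunit gene, stood at 17 of 57 reads in both replicates and its site also lies inside Glt8d1. Smad3, a transcription factor of TGF-beta signalling, stood at 16 of 57 in both. The site of Gm3693 lies inside Slc8a3, a sodium-calcium exchanger gene, and kept the C in 36 of 72 and 36 of 71 reads. Across the 7, levels ran from 28.1% at Smad3 to 86.4% at Pfkm in replicate 1.

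A further stretch is shown because its cytosine lies in a CG and its gene is in a list used below. It was chosen after its values were seen.

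Kmt2a (chr9:44881318-44881378, plus strand): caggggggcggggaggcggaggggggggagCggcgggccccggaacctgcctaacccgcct

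Kmt2a encodes a histone H3 lysine 4 methyltransferase of the trithorax group. Its site, 59 bases before the start site, kept the C in 11 of 52 reads in both replicates, a level of 21.2%. The lowest level of any member of 50 to 59 reads was 17.5%.

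Deep sites lay near gene starts more often than sites of lower depth. Of the members on chromosomes with start sites in the table, 176 of 1087 (16.2%, Wilson interval 14.1 to 18.5) in the first replicate and 174 of 1129 (15.4%, 13.4 to 17.6) in the second lay within 1 kb of a start site. Among sites of 30 to 49 reads these shares were 7.88% and 7.82%. The differences were 8.31 points (6.21 to 10.6) and 7.60 points (5.58 to 9.84), with adjusted p = 2.04e-17 and 6.82e-16 (Fisher's exact test, two-sided, Benjamini-Hochberg over 12 tests). At a depth of at least 60 the mean difference of both replicates was 4.70 points, and at 80 or more it was 4.79 points and did not pass (the larger unadjusted p of the replicates was 0.241, Fisher's exact test). Chromosome 18 was not used for start sites.

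Within the promoter windows themselves the shares were 5.61% and 4.34% of members against 2.05% and 1.83% at lower depth (adjusted p = 9.98e-11 and 5.72e-07, Fisher's exact test). These sites are among those within 1 kb of a start, so this is not separate support. The 80 promoter windows with a member had a median G and C content of 70.2% (quartiles 63.2 and 75.1) and a median of 31 CG in 300 bases. The 687 windows with a site of 30 to 49 reads had 63.7% and 23 CG, and all 32851 windows of the table had 52.7% and 7 CG. Promoters with a deep site were thus the richest in G and C of these sets. These are descriptions of overlapping sets with no test, and whether base composition set the depth was not tested.

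The share near gene starts was highest at 50 to 59 reads. In replicate 1 the share within 1 kb of a start rose from 6.03% at 30 to 34 reads to 8.54%, 13.9% and 17.9% at 35 to 39, 40 to 49 and 50 to 59 reads, and stood at 12.6% and 14.3% at 60 to 79 and at 80 or more. Replicate 2 gave 6.04%, 8.68%, 13.2%, 17.2%, 12.5% and, at 80 or more reads, 10 of 91 sites. The share climbed before the line at 50 reads was reached, and the intervals of the deepest sites are wide, with 63 and 91 sites at 80 or more reads.

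**Figure D1:**
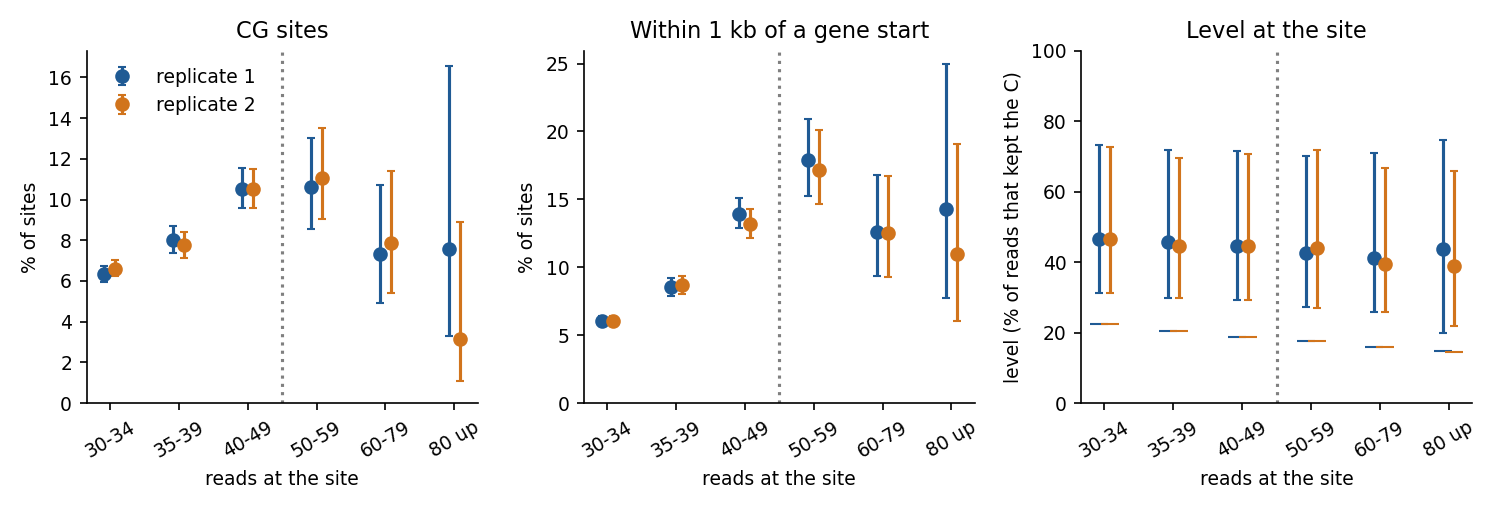
Share of CG sites, share of sites within 1 kb of a gene start (both with 95% Wilson intervals), and level (dot, median; bar, quartiles; dash, minimum) by number of reads at the site, for replicates 1 and 2 outside dense windows; the dotted line marks 50 reads. The CG and gene-start shares climb to 50 to 59 reads, where they reach 10.6% and 17.9% in replicate 1, and the minimum level falls steadily with depth.

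CG sites made up a somewhat larger part of the members than of the sites below them. CG sites numbered 106 (9.49%, Wilson interval 7.91 to 11.3) in the first replicate and 111 (9.56%) in the second, against 7.40% and 7.50% at 30 to 49 reads. The differences of 2.09 points (0.470 to 3.97) and 2.06 points (0.470 to 3.92) had adjusted p = 0.0309 in both (Fisher's exact test, Benjamini-Hochberg over 10 tests). The excess did not hold at greater depth: with at least 60 reads the mean difference was -0.378 points. It also missed the threshold at a level of at least 40% (2.85 points, adjusted p = 0.101, Fisher's exact test) and at the authors' adjusted p under 0.001 (1.83 points, adjusted p = 0.178, Fisher's exact test).

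By depth, CG stood at 6.32% in replicate 1 at 30 to 34 reads, 10.5% at 40 to 49, 10.6% at 50 to 59 and 7.30% at 60 to 79. In replicate 2 it stood at 6.60%, 10.5%, 11.1% and 7.89%. Just outside the limit, at 49 reads, 15 of 125 sites (12%) in replicate 1 and 11 of 131 (8.40%) in replicate 2 were CG, and just inside it, at 50 reads, were 17 of 133 (12.8%) and 22 of 142 (15.5%). Of the members 22.8% and 23.0% were CHG sites (H stands for A, C or T), against 25.1% and 24.4%, and the differences of -2.27 points (-4.70 to 0.336) and -1.36 points (-3.75 to 1.20) did not pass. CHH sites were 67.7% and 67.4%, against 67.5% and 68.1%. No CG was deep on both strands in either replicate, and 0 of the 106 and 111 CG members had the opposite cytosine listed at any depth.

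The members leaned to C-rich contexts outside CG as well. Of the 16 contexts formed by the called C and the next 2 bases, 2 were more frequent among members in both replicates (background: 12.5% of contexts called higher and 0.00% called lower). CCC made up 13.2% and 12.3% of members against 8.22% and 8.61% of sites at 30 to 49 reads, and CCG 4.66% and 3.62% against 2.27% and 2.06%. Their adjusted p values were 9.98e-07 and 0.000356 for CCC and 7.04e-05 and 0.00662 for CCG (Fisher's exact test, Benjamini-Hochberg over 32 tests). CGC in replicate 1 and CTC in replicate 2 were also called higher. CAA, CTA and CTG in replicate 1 and CCA and CTT in replicate 2 were called lower.

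Counted together, 24.4% and 22.1% of members had C or G at both of the next 2 positions, against 14.9% and 15.2%, differences of 9.43 points (6.96 to 12.1) and 6.90 points (4.57 to 9.41) with adjusted p = 3.50e-15 and 2.38e-09 (Fisher's exact test). This group was formed after the values were seen. It joins CCC and CCG, called above, with the CG contexts CGC and CGG, so it is not separate support. The base before the cytosine could be read for members inside promoter windows. It was T at 9 of 61 sites in replicate 1 and 8 of 48 in replicate 2 (14.8% and 16.7%), and 16.1% and 16.9% at the promoter sites of 30 to 49 reads. It was C at 25 of 61 and 20 of 48. C and G were thus the most frequent preceding bases in both depth ranges, and few deep sites stand behind these shares.

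Levels of the members spanned nearly the whole range. The median was 42.0% in replicate 1 (quartiles 26.8 and 70.6, lowest 14.7, highest 98.2) and 42.3% in replicate 2 (25.9 and 70.4, 14.5 and 98.6). At 30 to 49 reads it was 45.9% and 45.5%, with lowest levels of 18.8% in both. Depth chose the members, and the level that could be listed falls with depth, so no test is given. Levels under 25% made up 22.0% and 21.9% of members against 9.57% and 10.1%. Where only levels of at least 40% were kept in both depth ranges, the medians were 69.2% and 68.5% for members and 67.6% and 66.7% for the others. Members reached a level of 80% or more in 16.8% and 16.5% of cases, and the others in 19.5% and 18.9%.

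The members thus held both scarcely and almost fully retained cytosines. Median levels of CG, CHG and CHH members were 44.6%, 41.5% and 42.1% in replicate 1 and 50.0%, 36.8% and 42.9% in replicate 2. Members inside protein-coding genes had medians of 43.1% and 43.4%, and those outside 40.9% and 41.3%. A further 39 and 37 sites with at least 50 reads outside the dense windows kept the C in every read and are not members. At a level of 50%, 50 reads give a Wilson interval of 36.6 to 63.4 and 100 reads one of 40.4 to 59.6, against 34.1 to 65.9 at 34 reads.

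Among the deepest members, several lay far from any protein-coding gene. The site with the most reads among those deep in both replicates lay on chromosome 8 at position 109242416, inside the long noncoding RNA genes D030068K23Rik and 4922502B01Rik and 135399 bp from Pmfbp1. It kept the C in 78 of 128 reads in replicate 1 and 104 of 172 in replicate 2, levels of 60.9% and 60.5%. A site on chromosome 14 at position 38133183, 231919 bp from Nrg3, kept 53 of 110 and 53 of 109. These are well-covered single sites, each alone in its 10 kb window.

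Other deep members lay inside genes. Sfxn2, a mitochondrial carrier gene, held a site on chromosome 19 at position 46582694 with 37 of 119 and 38 of 119 reads. Mlxip, whose product is a glucose-sensing transcription factor, held one on chromosome 5 at position 123455388 with 102 of 121 and 68 of 81. Sema5b, a semaphorin gene of axon guidance, held one on chromosome 16 at position 35653386 with 56 of 86 and 83 of 128. In the last 2 the depth differed by about 1.5 times between the replicates while the level moved by less than 1 point.

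The highest levels with some lost reads were found in all contexts. On chromosome 6, position 72789289, in a CCG 244 bp from Tcf7l1, a transcription factor gene of the Wnt pathway, 50 of 51 reads kept the C in both replicates. Dagla, which encodes the lipase that makes the endocannabinoid 2-AG, had a CG site at 49 of 50 and 50 of 51 on chromosome 19 (position 10304793). Fam117b had a CG site at 49 of 50 in both on chromosome 1 (position 59913886). The non-CG sites on chromosomes 7 and 10 at positions 124503352 and 23887383 were deeper, with 86 of 88 and 126 of 129 reads, and 112 of 115 and 76 of 78. With 50 reads, 49 of them kept, the Wilson interval is 89.5 to 99.6.

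Of the 10 CG sites with the greatest summed depth among those deep in both replicates, 7 lay inside protein-coding genes. Of all members 54.3% and 55.4% did, and 10 sites are too few to set apart from these shares. In Kcnn1, a calcium-activated potassium channel gene, a CG on chromosome 8 at position 70852685 kept 23 of 78 and 24 of 79 reads. Zmiz1, a transcriptional coactivator gene, kept 41 of 51 and 84 of 104 at chromosome 14 position 25654430. In Cntfr, which encodes the receptor subunit for ciliary neurotrophic factor, 24 of 102 and 12 of 51 reads kept the C at chromosome 4 position 41672520. The Zmiz1 and Cntfr sites had about 2 times as many reads in 1 replicate as in the other, at levels within 1 point.

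The other deep CG members ranged from low to high levels. The CG in Adipor2, an adiponectin receptor gene, lay 72 bp from a start site on chromosome 6 (position 119388662) at 46 of 69 and 45 of 69 reads. That of Ranbp9, a scaffold gene, lay 280 bp from a start at 40 of 63 and 40 of 62, and that of Magi3, a junction scaffold gene, 406 bp from one at 37 of 59 and 36 of 60. Marchf9, a ubiquitin ligase gene, had a CG at 18 of 61 and 18 of 60. The CG on chromosome 2 at position 92183745, 6 bp outside Phf21a, a gene of the histone demethylase complex of LSD1, kept 55 of 62 and 54 of 61. At the last 2, which lay 268988 bp from Arl4a and 20922 bp from Ndufs4, the levels were 60.3% in both and 80.7% and 81.0%.

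Members lay inside protein-coding genes about as often as other sites. The shares were 54.3% (51.4 to 57.2) and 55.4% (52.5 to 58.2) against 53.5% and 53.4%, and the differences of 0.864 points (-2.13 to 3.83) and 1.95 points (-0.986 to 4.85) did not pass. With the dense windows left in, the mean difference was -12.0 points (adjusted p = 5.66e-16, Fisher's exact test), so the window rule decides this comparison. Exons, introns and untranslated regions were not analysed here. Members of replicate 1 lay inside 2.70% and those of replicate 2 inside 2.88% of the 21887 protein-coding genes, and 0.818% held a member of both. In either replicate 977 genes (4.46%) held 1, against 8938 (40.8%) for sites of 30 to 49 reads. The genes with a member had a median length of 61.0 kb, against 39.5 kb for genes with a site of 30 to 49 reads and 17.2 kb for all. Of the 977 genes, 871 held 1 distinct member, 99 held 2, 5 held 3 and 2 held 4, and 767 also held a site of 30 to 49 reads.

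The 4 members of Chl1 were packed at a single place. Those of Gli2 were spread out, except for the last 2 given below, which lay close together. Chl1, a neural cell adhesion gene, held 4 members close together on chromosome 6 (positions 103649076 to 103649288), all at low levels, from 14.5% to 27.5%. Of these, 1 was deep in replicate 1, at 16 of 101 reads, and the same site kept 19 of 69 in replicate 2. Gli2, a transcription factor of Hedgehog signalling, held 4 members between positions 118841367 and 119048102 of chromosome 1, at 48 of 56, 10 of 51, 18 of 54 and 18 of 52 reads. The last of these was seen in replicate 2, at position 119048097, and the one before it in replicate 1, at position 119048102.

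Near-equal counts at neighbouring positions recurred in these genes. In Trak1, a mitochondrial transport adaptor gene, 45 of 50 reads kept the C at chromosome 9 position 121365640 in replicate 1, and 45 of 50 at position 121365529 in replicate 2. In Nrxn2, a presynaptic adhesion gene, 10 of 51 reads kept the C at 6497895 in replicate 1 and 10 of 51 at 6497997 in replicate 2. Distinct members of a gene therefore need not be separate observations.

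The other leading genes held members that lay farther apart. Erg, an ETS transcription factor gene, had 3, at 41 of 50, 56 of 66 and 39 of 112 reads in replicate 1, of which the last stood at 29 of 79 in replicate 2. Clip2, a microtubule linker gene, had sites at 22 of 73 reads in both replicates and at 42 of 55 and 43 of 55. Sfi1, a centrosome gene with 29 distinct sites of 30 to 49 reads, kept 44 of 50 and 44 of 51 at a first site and 13 of 57 in both at a second. Levels differed widely between the sites of each of these 3 genes.

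The levels of other leading genes lay closer together or as far apart. Lmx1b, a LIM homeobox gene of limb and neuron patterning, held 3 members at 29.4% to 43.1%, and Sh3pxd2a, an invadopodium scaffold gene, 3 at levels from 30.0% upward, of which those at positions 47464486 and 47464490 had 21 of 60 reads in replicate 2 and 21 of 61 in replicate 1. Adcy6, an adenylyl cyclase gene, held a member at position 98600158 with 39 of 56 and 78 of 113 reads, and one at position 98600046 with 39 of 57 in replicate 2. Lhfpl3 ranged from 33.3% to 75.5% and Sbf2 from 18.8% to 84.0%.

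Lists of genes were read against the 4.46% of all protein-coding genes that held a member. They were not tested, and long genes hold more sites. Of the genes of cytosine methylation, oxidation and 5fC excision, 3 of 27 held a member: the methyltransferase gene Dnmt3a at 27 of 65 reads in replicate 1, its catalytically inactive partner Dnmt3l at 32 of 53 in replicate 2, and Tet1, whose enzyme makes 5fC, at 16 of 62 in replicate 1. All of these were outside CG. Of the pluripotency factors 3 of 26 held one, Zfp42 (42 of 57, replicate 1), Esrrb (40 of 50, replicate 2) and Tfcp2l1 (48 of 50, replicate 1), again outside CG and deep in a single replicate each.

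Members in 2 of 25 polycomb, trithorax and demethylase genes were those in Kmt2a, described above, and in Kdm2b, a CpG island binding demethylase, at 12 of 52 reads in replicate 2. Of the lineage regulators 2 of 32 held one: Cdx2, a trophectoderm regulator, at 68 of 88 reads in both replicates, and Hoxa9, at 13 of 63 in a CG in replicate 1. Imprinted genes had 2 of 21, the growth factor receptor gene Igf2r at 14 of 53, 13 bases after its start site, and the channel gene Kcnq1, whose members stood at 13 of 68 and 58 of 63, all in replicate 1. Cell cycle and checkpoint genes had 4 of 25 (Rad51b, Cdkn1a, Fhit and Wwox), with levels from 19.2% at Wwox to 48.1% at Fhit.

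The 2 lists of long genes had the highest shares. Neuronal adhesion and channel genes, with a median length of 1241 kb, had 5 of 20 (Cntn5, Csmd1, Ptprd, Dlg2 and Cntnap5a), and actin and microtubule regulators, with 207 kb, also 5 of 20. Among the latter, Dst, a cytolinker gene, held a CG at 72 of 86 reads in replicate 2, and Camsap1, which binds microtubule minus ends, a CG at 38 of 57 and 38 of 55. Mical3, an actin-oxidising enzyme gene, stood at 34 of 90 in replicate 2, Map2 at 16 of 72 and Daam1 at 16 of 52. Of the short ribosomal protein genes, with a median of 3.88 kb, 0 of 20 held a member. The list of the longest genes had the highest share, equal to that of the next longest, and the list of the shortest genes had the lowest. Between these ends the shares did not follow length throughout. Pluripotency factors, with a median of 8.19 kb, had 11.5%, while polycomb, trithorax and demethylase genes, with 41.0 kb, had 8%. The part of gene length was not tested.

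Most members were not listed in the other replicate. Of those of replicate 1, 295 (the same in both) were members in replicate 2, 144 had 30 to 49 reads there, 3 kept every C there and 675 (60.4%) were not listed. Of those of replicate 2, 143 had 30 to 49 reads in replicate 1 and 723 (62.3%) were not listed. Sites of 30 to 49 reads were listed again at 40.1% and 38.5%, shares close to the 39.6% and 37.7% of members. Of the unlisted members 50 (7.41%) and 54 (7.47%) had a site in the other replicate within 120 bp with both counts within 1 read, 37 and 39 of them at 91 to 120 bp and 13 and 14 at 1 to 5 bp. Of these 50 and 54, 24 and 27 lay on the same strand.

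At members listed in both replicates the read counts fell on simple ratios. Among the 582 sites deep in at least 1 replicate with lost reads in both, kept and lost reads were each within 2 reads of a 1:1 ratio at 250 sites and of a 2:1 ratio at 191. They were so at 39 for 3:2, at 9 for 3:1 and at 4 for 4:3. With the same tolerance the intermediate ratios were met at 1 site for 5:4, 5 for 7:4 and 0 for 5:2. In all, 493 sites (84.7%) met at least 1 of 1:1, 4:3, 3:2, 2:1 and 3:1. The deeper library was replicate 1 at 95 and replicate 2 at 96 of the 2:1 sites.

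At some sites both counts changed by the same factor. At chromosome 4 position 128889218 in Trim62, a ubiquitin ligase gene, 10 of 52 reads kept the C in replicate 1 and 20 of 104 in replicate 2. On chromosome 7 at position 45318930, in the cation channel gene Trpm4, the counts were 25 of 46 and 50 of 92. On chromosome 16 at position 80781857 they were 20 of 96 and 10 of 48. In each case both counts were exactly 2 times those of the other library. Over the 191 sites the median gap in level was 0.443 points and the largest 3.33, which the condition on both counts largely fixes, and sites of about this depth ratio whose levels differed fall outside the class.

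**Figure D2:**
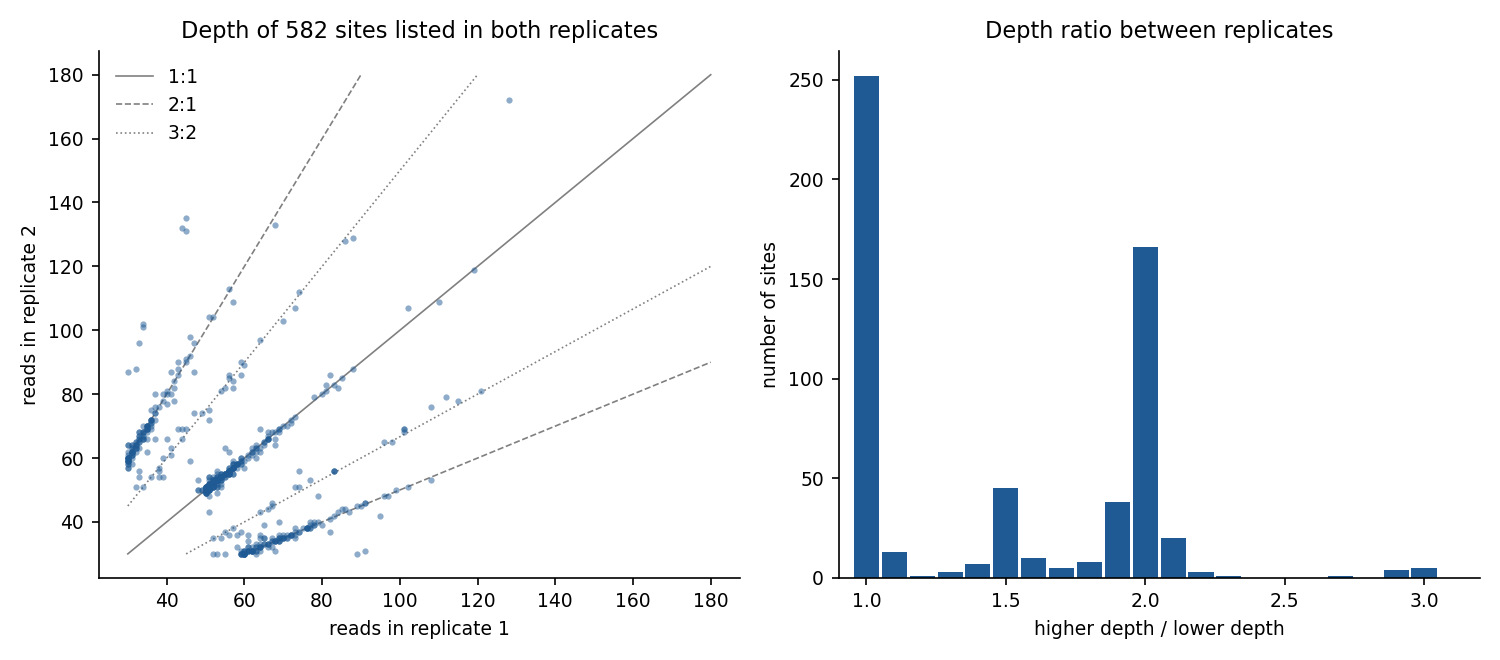
Left, reads in replicate 1 against reads in replicate 2 for the 582 sites with at least 50 reads in 1 replicate or more, listed in both with lost reads in both; lines mark ratios of 1:1, 2:1 and 3:2. Right, number of sites by ratio of the higher to the lower depth; 252 sites lie between 0.95 and 1.05, 45 between 1.45 and 1.55, and 166 between 1.95 and 2.05.

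Among sites deep in at least 1 replicate, those with a 1:1 ratio and those with a 2:1 ratio differed in where they lay. Of the 1:1 sites, 38 of 250 were CG (15.2%, Wilson interval 11.3 to 20.2) and 70 of 242 lay within 1 kb of a start site (28.9%, 23.6 to 34.9). Of the 2:1 sites 12 of 191 were CG (6.28%, 3.63 to 10.7) and 16 of 189 lay near a start (8.47%, 5.28 to 13.3). At the shared sites that were deep in neither replicate the shares were 7.85% and 8.50%. Counts were identical at 75.5% of these sites too, so equal counts alone did not go with the higher shares. Of the 1:1 sites 241 were deep in both replicates, and of the 2:1 sites 7 were. The part of depth in both libraries was not tested. The intervals of 1:1 and 2:1 sites did not overlap for either measure, but they treat sites as independent. By the entry rule the classes also differed in depth. The higher depth was at least 50 reads at 1:1 sites and at least 58 at 2:1 sites. The ratio classes were formed after the values were seen, so no test is given. Of the members not listed in the other replicate, 8.89% and 8.71% were CG and 14.2% and 13.0% lay near a start.

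**Figure D3:**
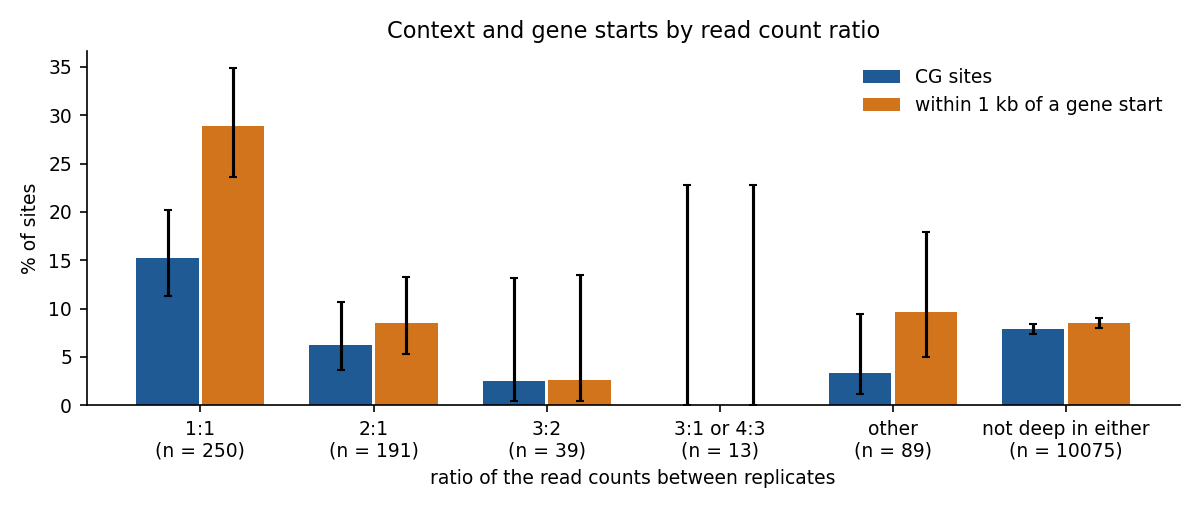
Share of CG sites and of sites within 1 kb of a gene start, with 95% Wilson intervals, by the ratio of read counts between the replicates, for sites deep in 1 replicate or more and, at the right, shared sites deep in neither. The 1:1 sites reach 15.2% and 28.9%, while the 2:1 sites, at 6.28% and 8.47%, are close to the sites deep in neither. Counts were identical at 75.5% of the sites deep in neither.

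The 1:1 sites were also the less deep ones, with a median higher depth of 53 reads, against 68 for 2:1 and 81 for 3:2. At the 2:1 sites the lower depth had a median of 34 reads, the same as that of all sites of 30 to 49 reads. Sites had to have at least 30 reads in both libraries and 50 in 1 of them to enter, which bears on these medians. No source used here says whether duplicate reads were removed, and their part in these ratios was not tested.

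Only 1 shared member differed between the replicates past the threshold (Fisher's exact test, Benjamini-Hochberg over 11542 shared sites, of which 0.0260% were called). It lay on chromosome 19 at position 61331453, 102992 bp from Csf2ra, in a window of 7 sites. It kept 16 of 41 and then 56 of 63 reads (Fisher's exact test, adjusted p = 0.000904), and without windows of 5 or more sites no member did. Of the 585 shared members 5 had an unadjusted p under 0.05. Of the 5 sites deep in both replicates with the lowest p, 2 more lay 1 and 5 bases from it, and the lowest p was that of a site in Zfp939, at 93 of 108 and 56 of 76 reads (unadjusted p = 0.0380, Fisher's exact test). The others lay in Chl1, described above, and near Olfr71, at 35 of 51 and 57 of 75. The Fisher test takes the libraries as independent, but their counts at shared sites were closer than sampling noise allows. It therefore had little room to call differences, and the few calls are no measure of agreement.

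Of the 89 shared members that met none of the ratios 1:1, 2:1, 3:2, 3:1 and 4:3, 70 had levels within 5 points of each other. At 14 the kept reads agreed within 1 read while the lost reads did not, and at 11 the reverse. In Gabrr1, a GABA receptor subunit gene, 26 reads kept the C in both replicates, of 30 in replicate 1 and of 59 in replicate 2. In Kcnq1, 13 reads kept it in both, of 68 and of 31. These sites of Gabrr1 and Kcnq1 had large gaps in level with equal numbers of retained reads. Elsewhere the gap was small, as on chromosome 19 at position 8990420, with 14 of 51 and 14 of 54 reads.

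Members were spread over all chromosomes, with a larger part on chromosome X than among less deep sites. Chromosome X held 32 (2.86%) and 33 (2.84%) members, against 1.65% and 1.64% of the sites of 30 to 49 reads, differences of 1.21 points (0.366 to 2.37) and 1.20 points (0.376 to 2.33) with adjusted p = 0.0214 in both (Fisher's exact test). With 1 site per 10 kb window the difference was 0.993 points and did not pass (adjusted p = 0.0768, Fisher's exact test), and it did not pass at 60 or more reads (adjusted p = 0.132), at a level of at least 40% (adjusted p = 0.340) or with the dense windows left in (adjusted p = 0.217, Fisher's exact test for each). Per Mb, chromosome X held 0.187 and 0.193 members, which is 0.459 and 0.437 of the autosome median. For less deep sites X held 0.250 and 0.244 of the autosome median.

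On the autosomes, members made up 3.29% (chromosome 14) to 5.37% (chromosome 19) of the compared sites in replicate 1, and 3.54% (chromosome 11) to 6.19% (chromosome 19) in replicate 2. Chromosome 19 was the highest autosome in both, while the lowest differed. Chromosome X stood at 7.05% and 7.04%, above every autosome in both replicates. Chromosome Y held 1 member in each. The plus strand held 50.4% and 51.4% of members, against 50.3% and 49.9%.

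**Figure D4:**
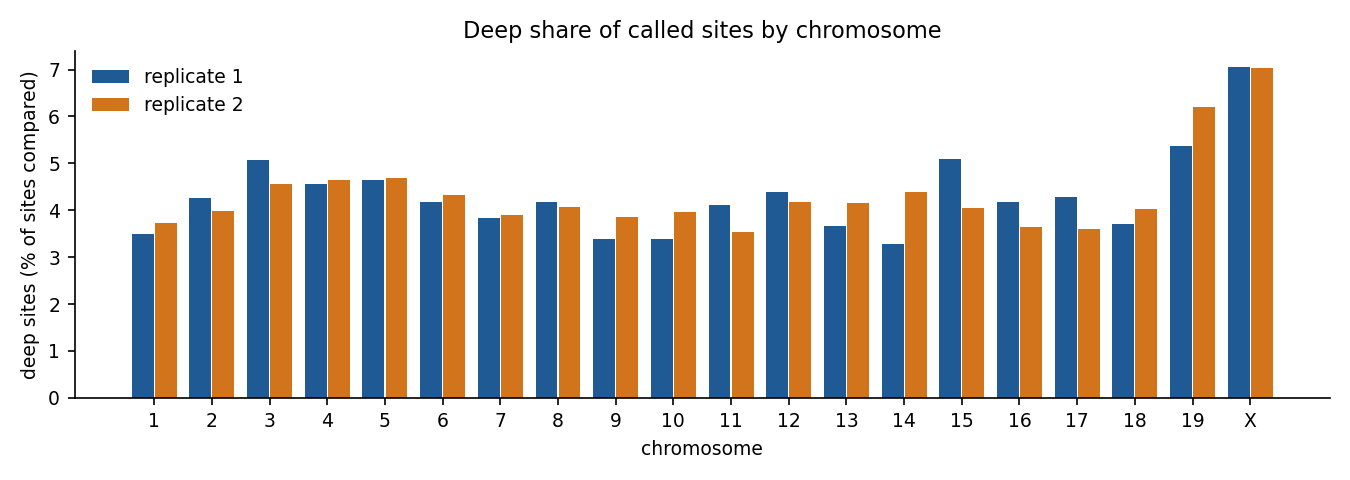
Members as a share of all compared sites (members plus sites of 30 to 49 reads, outside dense windows, with lost reads) on each autosome and chromosome X, for replicates 1 and 2. Chromosome X, at 7.05% and 7.04%, stands above every autosome, of which chromosome 19 is highest.

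Leaving out the dense windows did not remove all local packing. Another listed site lay within 100 bp of 4.12% (Wilson interval 3.10 to 5.45) and 4.65% (3.58 to 6.02) of members, against 1.47% and 1.71% of less deep sites. Windows with 4 to 9 sites held 23 (2.06%) and 30 (2.58%) members, against 1.01% and 0.985% of less deep sites. The number of sites in a window was used to choose the members, so this is a description with no test. Sites per window were counted in the library that listed more there. Most members, 75.7% and 74.2%, lay in windows with at most 1 listed site per library, against 76.6% and 76.7% of less deep sites. In such a window the 2 libraries can list different sites. Just inside the limit, the 1 window of 8 sites held 1 site of at least 50 reads in each replicate and the 2 windows of 9 sites held 0. Just outside it, the 1 window of 10 sites held 1 and 0, and the 1 window of 11 sites held 9 and 10.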

How the data were processed

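Candidate 5fC was measured in 2 libraries of mouse embryonic stem cell DNA. Bismark 0.23.1 and Bowtie2 2.4.5 stand in the submitters' processing notes beside cutadapt 4.1, SAMtools, FastQC 0.11.9 and the build mm10, with no role or order. Per cytosine the authors deposited raw counts of reads that kept the C and that did not, and a p-value with its adjusted p-values, per the file headers. Each listed site had at least 30 reads and an adjusted p under 0.05, so cytosines that were not called were not analysed here. Reads at listed sites summed to 1039807 and 1078502.

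Levels, shares and Fisher's exact tests were computed in Python 3.11.15 with scipy 1.17.1. The tests were also run on simulated counts from independent libraries and sites. That simulation does not cover the dependence found at shared sites. Genes and start sites came from RefSeq tables of GRCm38, the same assembly as mm10. The deposited 3-base context matched the RefSeq sequence at 1079 of 1079 checked positions. The tests of start sites, 3-base contexts, window counts and read ratios were added after the values were seen. Named sites were the 10 deepest, the 10 highest in level, the 10 deepest CG and the 5 lowest Fisher p among sites deep in both replicates, and any CG deep on both strands. Named genes were the 15 with the most members, up to 6 per list and 8 promoters. Of these, 1 promoter site and 1 gene are not reported here. Further genes were chosen after their values were seen. Members and lists were chosen with earlier results of these data known.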

Additional observations from a re-analysis of the deposited data

How the results depend on the processing

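At a depth of at least 60 there were 396.5 members per replicate and 65 in both by construction, with differences from less deep sites of -0.378 points for CG, -0.945 for the plus strand, -1.20 for protein-coding genes and 1.51 for chromosome X, and a median level of 40.2%. At 80 or more these were 80.5 and 15 members, -2.08 points for CG, 3.26 for chromosome X, 4.79 for gene starts, a median level of 41.2% and 0 sites that differed between replicates. With no window left out there were 471 members in both replicates, 3 sites differed, and the differences were -3.54 points for CHG, -12.0 for protein-coding genes and 0.471 for chromosome X, with a median level of 33.3%. Without windows of 5 or more sites 0 sites differed. At an adjusted p under 0.001 CG stood at 1.83 points and the median level at 51.0%. With fully kept sites the median level was 43.5%. With 1 site per window chromosome X stood at 0.993 points. At a level of at least 40% the differences were 2.85 points for CG, 0.924 for chromosome X and -0.527 for the plus strand, and the median level was 68.9%. The other 59 alternatives kept direction and side of the threshold, or a count within 1.5 times. Leaving out a replicate gave 1117 to 1161 members, 2.06 to 2.09 points for CG, -2.27 to -1.36 for CHG, 1.20 to 1.21 for chromosome X, 7.60 to 8.31 for gene starts and a median level of 42.0% to 42.3%. The cause was not tested where a value moved, except where fewer sites follow from the setting. No paired analysis was possible because the labels give 1 group.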
